A study of Mus musculus with 72 samples.

Results

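Of 51979 ATAC-seq peaks off the mitochondrial chromosome, 1570 lay in long interspersed nuclear elements (LINEs) and outside promoters. They were taken by their annotation alone: the repeat class in the deposited peak table reads LINE and the peak was not assigned to a promoter. Of these peaks, 808 lay in introns and 762 between genes. The cells were RAW264.7, a mouse macrophage-like line whose genotype the labels give as BALB/c, grown in serum-containing medium with no added agent. Every group carried a lentiviral short hairpin RNA. shNCOR cells had one against NCOR, shSMRT cells one against SMRT, and shGFP cells, the control, one against GFP, a protein these cells do not make. NCOR and SMRT are corepressors that bring histone deacetylase activity to nuclear receptors and other transcription factors. ATAC-seq, in which a transposase cuts accessible DNA, gave 3 libraries per group, and RNA-seq gave another 3 per group. Nothing in the labels ties the 3 libraries of a group to separate cultures, so the p-values rest on variation among libraries that may be technical. The other samples of the series were not analysed here.

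LINEs are retrotransposons that copy themselves through an RNA intermediate and their own reverse transcriptase. The L1 family is the one still active in the mouse: L1Md elements are the youngest, L1_Mus, L1_Mur and Lx elements are rodent-specific and older, and L1M elements date from early mammals. L2, CR1 (L3) and RTE elements are older families that no longer move. Most genomic copies are truncated and are kept silent by DNA methylation and histone methylation, and some old copies have become enhancers of nearby genes.

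Peaks assigned to a promoter had been left out, so few of these peaks could touch an annotated start site. Of 32851 RefSeq promoter windows (250 bases before to 50 after a gene's start), 9 overlapped a LINE peak, and they touched 8 peaks. The 3 windows with the longest overlap are shown, as DNA of these peaks that can be read here. The next longest, at D430001F17Rik (228 bases shared) and Zfand4 (221 bases), held no match to the motifs searched and are not shown. The start of the predicted gene Gm40007 (chr2:172276164-172276463, minus strand) lay with all 300 bases in an L1MC4 peak. The start of Gm41309 (chr15:38602237-38602536, minus strand) lay with all 300 bases in an L1MB7 peak. The start of Gm51660 (chr9:118073401-118073700, plus strand) shared 265 bases with an Lx5c peak. Sequences are from RefSeq on GRCm38.p6, written 5′ to 3′ on the gene's strand, with capitals at the motif matches.
Gm40007: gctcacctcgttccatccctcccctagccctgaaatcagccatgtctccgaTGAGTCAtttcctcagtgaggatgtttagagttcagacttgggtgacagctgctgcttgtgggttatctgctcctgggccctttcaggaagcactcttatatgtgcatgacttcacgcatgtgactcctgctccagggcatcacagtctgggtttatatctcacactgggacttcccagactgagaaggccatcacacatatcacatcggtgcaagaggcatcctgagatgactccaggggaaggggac
Gm41309: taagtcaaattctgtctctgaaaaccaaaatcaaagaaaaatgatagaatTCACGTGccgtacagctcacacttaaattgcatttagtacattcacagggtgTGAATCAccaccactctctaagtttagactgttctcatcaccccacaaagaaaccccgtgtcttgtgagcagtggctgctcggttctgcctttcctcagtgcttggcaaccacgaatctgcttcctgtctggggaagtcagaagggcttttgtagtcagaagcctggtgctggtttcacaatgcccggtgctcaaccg
Gm51660: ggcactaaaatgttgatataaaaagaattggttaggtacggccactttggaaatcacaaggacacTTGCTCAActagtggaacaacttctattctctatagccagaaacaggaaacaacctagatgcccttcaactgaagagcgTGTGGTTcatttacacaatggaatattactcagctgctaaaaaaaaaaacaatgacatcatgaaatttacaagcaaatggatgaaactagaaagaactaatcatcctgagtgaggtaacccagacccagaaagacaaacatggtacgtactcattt
In all, 11 motifs were searched on both strands: PU.1 GAGGAAG, AP-1 TGANTCA, C/EBP TTGCNNAA, the interferon-stimulated response element, the nuclear receptor half-site AGGTCA, RUNX TGTGGTT, E-box CACGTGA, kappa-B, STAT TTCNNNGAA, KLF/SP GGGCGGG and YY1 ATGGCGG. The Gm40007 window held an AP-1 match, 199 bases before the start, and 7.81% of all windows hold one. The Gm41309 window held an E-box match on the other strand (3.77% of windows) and an AP-1 match. The Gm51660 window held a C/EBP match (10.8% of windows) and a RUNX match (5.27%). A match is a description, not a binding site.

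Values are reads per peak, scaled by the authors to 10 M reads per library. The L1MC4 peak over the Gm40007 start (chr2:172276111-172276539) had 46.2, 57.8 and 63.4 in shNCOR, 104, 126 and 123 in shSMRT and 98.4, 109 and 131 in shGFP. All 3 shNCOR libraries lay below every library of the other groups, and the shSMRT and shGFP libraries overlapped. Set against shGFP, it was lower in shNCOR by a log2 fold change of -0.95 ± 0.16 (SE; limma, adjusted p = 3.36e-05), and the value in shSMRT was 0.07 ± 0.16 (adjusted p = 0.824). The Gm41309 peak lay between 168 and 212 in all 9 libraries and the Gm51660 peak between 48.1 and 92.6, and neither passed the test in any comparison. Of the remaining peaks that overlapped a window, an L2 peak lay just before the start of Gm32914, a predicted gene, and did not cover it. This L2 peak was higher in shNCOR (0.37 ± 0.10, limma adjusted p = 0.0136) and lower in shSMRT (-0.28 ± 0.10, adjusted p = 0.0439) than in shGFP.

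The LINE peaks were mostly old elements. By family, 1218 were L1, 279 L2, 63 CR1, 8 RTE-X and 2 RTE-BovB. Within L1, 577 were L1M or the related HAL1, 456 Lx, 144 L1_Mus or L1_Mur and 41 L1Md. The peaks carried 120 element names, of which Lx8 was the most frequent (140 peaks), followed by L2 (96), L2a (80) and Lx7 (63). Among the youngest, 33 of the L1Md peaks were in L1Md_F2, 4 in L1Md_A, 3 in L1Md_F3 and 1 in L1Md_T. The sources used here do not give how reads that match several copies were treated, so the level of young, near-identical copies is uncertain. The share of a chromosome's peaks that lay in LINEs ran between 2.09% on chromosome 17 (50 of 2390) and 4.45% on the X chromosome (43 of 967), leaving out Y.

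LINE peaks were narrower, weaker and farther from genes than the other intron or intergenic peaks, of which there were 31225. Their median width was 300 bp, against 338 bp. Their median level over the 9 libraries was 40.9, against 50.3 in the others and 59.0 over all peaks. The median distance to the nearest gene start was 25.6 kb, against 20.0 kb. Peaks in LTR elements were similar, at 290 bp, a level of 38.9 and 22.7 kb. Peaks in SINEs were about as narrow and weak (291 bp and 40.4) but nearer to genes (15.5 kb). Small width and low level are thus not peculiar to LINEs. Level was lowest in the youngest elements: the median was 18.8 in L1Md, 32.3 in L1_Mus and L1_Mur, 38.7 in Lx, 45.3 in L1M and HAL1, 42.7 in L2 and 57.3 in CR1 peaks. The table also names the libraries whose own peak lists fed each merged peak. Of the LINE peaks, 591 (37.6%) were in the lists of all 9 libraries, against 51.9% of all peaks. The share was 45.5% for other intron or intergenic peaks, 38.5% for LTR peaks and 36.1% for SINE peaks. Within LINEs it was 19.5% for L1Md, 36.0% for Lx and 42.9% for CR1.

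The strongest LINE peaks were all in old elements or Lx8. The highest was an L2a peak in an intron 49.4 kb from Rflna (chr5:125052175-125053467), with 512, 579 and 533 in shNCOR, 479, 517 and 579 in shSMRT and 513, 551 and 532 in shGFP. It did not pass the test in any comparison, and its libraries overlapped between groups. Next came an L1ME4b peak near Gtf3c5, an L2a peak near Nol4l, an Lx8 peak near Apbb1ip, an L1MA5 peak near Pdgfb and an Lx8 peak near Hspb7, all in the lists of 9 libraries. Of these, the Nol4l peak fell in shSMRT (-0.31 ± 0.08 against shGFP, adjusted p = 0.00647), and so did the Pdgfb peak (-0.26 ± 0.08, adjusted p = 0.0224). The call of the Pdgfb peak was lost in 7 of 19 other settings.

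LINE peaks took a larger part of the reads in peaks in shSMRT cells, and so did other intron or intergenic peaks. Their share of the reads in peaks was 1.77, 1.74 and 1.85% in shNCOR, 2.09, 2.00 and 1.98% in shSMRT, and 1.78, 1.83 and 1.84% in shGFP. Every shSMRT library lay above every library of the other groups, while shNCOR and shGFP overlapped. The means were 1.79 ± 0.06% in shNCOR, 2.03 ± 0.06% in shSMRT and 1.82 ± 0.04% in shGFP (SD, n = 3). As a share of the whole library the values were 0.976 ± 0.032% in shNCOR, 0.982 ± 0.011% in shSMRT and 0.946 ± 0.027% in shGFP, and the groups overlapped. The share of all reads that lay in any peak moved with the groups, at 54.1 to 54.9% in shNCOR, 47.2 to 49.3% in shSMRT and 50.1 to 53.5% in shGFP. Other intron or intergenic peaks took 47.0 ± 0.7% of reads in peaks in shNCOR, 49.6 ± 0.6% in shSMRT and 47.6 ± 0.5% in shGFP, with every shSMRT library above the rest. Promoter peaks took 35.9 ± 0.9% of reads in peaks in shNCOR, 32.8 ± 0.8% in shSMRT and 35.2 ± 0.6% in shGFP. The part of these shifts in the results that follow was not tested, beyond the rescaled counts given with them.

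More LINE peaks were higher than lower after SMRT knockdown. Of 1559 LINE peaks tested in shSMRT against shGFP, 174 (11.2%) were higher and 83 (5.32%) lower at an adjusted p under 0.05 (limma). Over all 51466 peaks tested, 6.81% were higher and 10.9% lower on the deposited scale. That order over all peaks turned with the scaling, to 8.90% higher and 5.29% lower with equal reads in peaks and to 8.45% and 6.42% with quantile normalization. The 11 members not tested, 6 of them L1Md, were below 10 reads in 7 or more libraries. The median log2 fold change was 0.05 over the LINE peaks and -0.09 over all peaks. Other intron or intergenic peaks had 8.51% higher and 8.16% lower, peaks in LTR elements 7.38% and 7.41%, peaks in SINEs 4.80% and 5.74%, and promoter peaks 1.52% and 22.8%.

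Of the 1559 LINE peaks tested, 103 were called at least 2-fold higher and 15 at least 2-fold lower. Of all 51466 peaks tested these counts were 1627 and 497, so large gains outnumbered large losses in both. In 170 of the 174 higher and 81 of the 83 lower LINE peaks the shSMRT and shGFP libraries did not overlap. Called or not, 21.7% of LINE peaks were separated upward and 12.4% downward, beside 13.3% and 21.9% of all peaks. In bulk libraries, more cells with an open site and more cuts per cell cannot be told apart. Scaling each library to equal reads in peaks gave 231 LINE peaks higher (14.8%) and 48 lower (3.08%), and quantile normalization 204 (13.1%) and 72 (4.62%), settings in which gains exceeded losses over all peaks too. With the first of these, shSMRT against shGFP had a median of 0.00 over all peaks and 0.15 over LINE peaks. The number of lower peaks was 47 without shGFP library 3 and 51 without shGFP library 1.

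**Figure D1:**
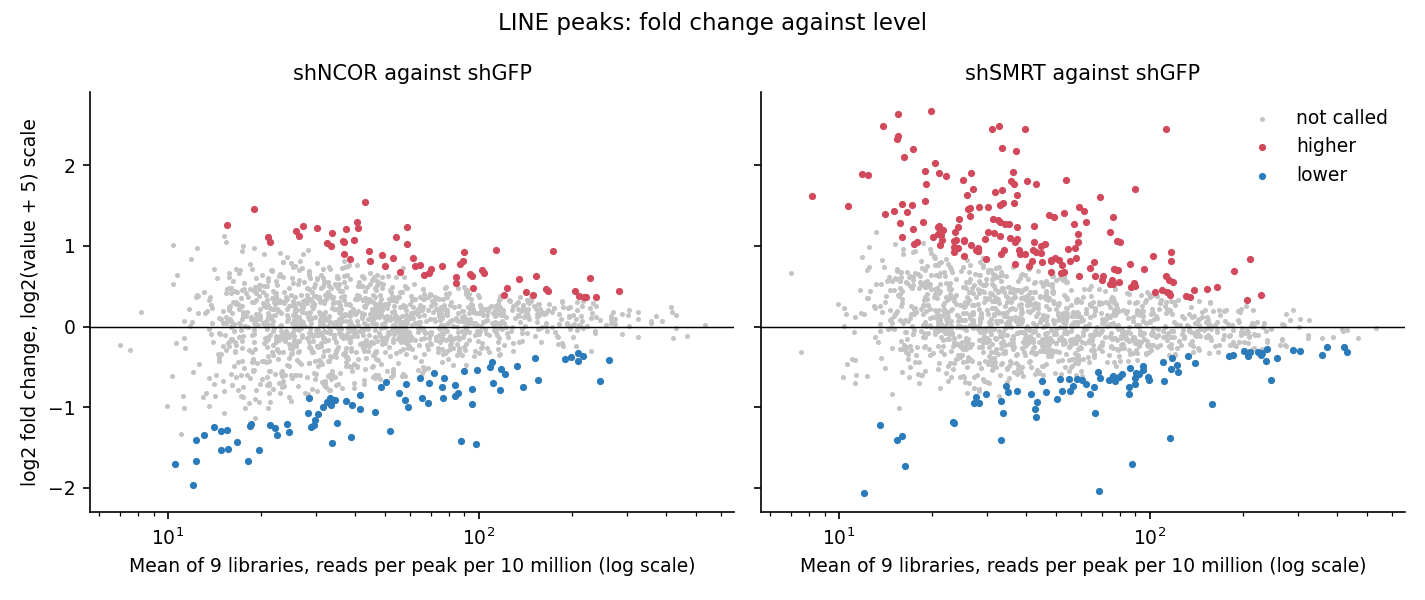
LINE peaks in shNCOR (left) and shSMRT (right) against shGFP: each point is 1 of 1559 tested peaks, the x axis is its mean over 9 libraries in reads per 10 M (log scale) and the y axis its log2 fold change on the log2(value + 5) scale. In shSMRT the 174 red points (higher) reach further from 0 than the 83 blue points (lower), and 62 of the red points but 11 of the blue ones lie at a mean under 30.

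The plot of fold change against level shows where the gains lay. Of LINE peaks with a mean under 30, 62 were higher (12.0%) and 11 lower (2.13%) of 517 in shSMRT against shGFP, beside 9.52% and 2.32% of other intron or intergenic peaks. Between 30 and 60, 66 were higher (12.3%) and 19 lower (3.53%) of 538, beside 9.60% and 4.55%, so gains exceeded losses at low levels in both. At 60 or more the counts were near each other, with 46 higher (9.13%) and 53 lower (10.5%) of 504. At that level the other intron or intergenic peaks had 7.13% higher and 14.3% lower. Every merged peak was in the lists of at least 2 libraries, and 81.8% of all peaks were in all 3 lists of some group. Peaks listed in shSMRT alone thus had to be high there: 29 LINE peaks were of this kind and 24 of them were called higher. Among the 591 LINE peaks listed in all 9 libraries, 52 were higher (8.80%) and 41 lower (6.94%), beside 7.10% and 12.0% for the other intron or intergenic peaks in all 9 lists.

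The largest gain was an Lx5 peak (chr13:79242602-79243010) in a gene desert, 1044 kb from Nr2f1, which encodes an orphan nuclear receptor. It had 5.28, 3.30 and 5.07 in shNCOR, 47.0, 66.9 and 39.6 in shSMRT and 2.24, 2.81 and 6.45 in shGFP. All shSMRT libraries were high, and the shNCOR and shGFP libraries were near the floor and overlapped. This peak was in the lists of shSMRT libraries only, so it had to be high there. Its log2 fold change in shSMRT against shGFP was 2.67 ± 0.40 (limma, adjusted p = 2.52e-06). Nr2f1 RNA was at most 0.176 RPKM in any library. At peaks this near 0 the fitted fold change depends on the 5 reads added before the logarithm.

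An L1ME4b peak 1.25 kb from Sncb, which encodes beta-synuclein (chr13:54767754-54767945), had 7.92, 9.90 and 12.7 in shNCOR, 24.4, 36.3 and 43.9 in shSMRT and 2.24, 1.87 and 0 in shGFP. The 3 groups did not overlap at this peak. The peak was in the lists of shSMRT libraries only, so it had to be high there. It was higher by 2.63 ± 0.41 in shSMRT (adjusted p = 5.47e-06) and by 1.26 ± 0.41 in shNCOR (adjusted p = 0.0450), a call lost in 13 of 18 other settings. Sncb RNA is listed at 0 in all 9 libraries. An L1_Mus2 peak in an intron 57.9 kb from 4930554G24Rik, a gene without a stated role here (chr11:14120967-14121296), was at 0, 3.30 and 5.07 in shNCOR, 46.0, 31.8 and 31.1 in shSMRT and 2.24, 0 and 5.53 in shGFP. Only its shSMRT libraries stood apart (2.49 ± 0.45, limma adjusted p = 7.28e-05), and this peak too was listed in shSMRT libraries only.

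Among the youngest elements, the L1Md_F3 peak 71.7 kb from Kdr, the gene of a VEGF receptor (chr5:76049902-76050336), changed most. It had 21.1, 36.3 and 26.6 in shNCOR, 83.6, 94.2 and 62.3 in shSMRT and 6.71, 16.9 and 9.22 in shGFP. The groups did not overlap, with shSMRT highest and shGFP lowest. The peak was higher by 2.45 ± 0.29 in shSMRT (adjusted p = 1.6e-08) and by 1.08 ± 0.29 in shNCOR (adjusted p = 0.0125), a call lost in 4 of 19 settings. Kdr RNA was at most 0.035 RPKM in any library. An L1MEc peak 41.9 kb from Cdc14a, a cell-cycle phosphatase gene, was higher in shSMRT by 2.49 ± 0.33 (adjusted p = 1.67e-07), while Cdc14a RNA was at 3.21 ± 0.41 in shNCOR, 3.01 ± 0.29 in shSMRT and 3.11 ± 0.28 RPKM in shGFP (SD, n = 3).

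The gain with the smallest adjusted p of all 1559 LINE peaks tested was at a strong peak, picked after its values were seen, in an L1MB8 element near Eps8l3, a relative of the signalling adaptor Eps8 (chr3:107818732-107819557). It had 73.9, 74.3 and 82.5 in shNCOR, 215, 222 and 236 in shSMRT and 25.7, 41.3 and 48.0 in shGFP. The 3 groups were fully separated, with shSMRT highest and shGFP lowest. The Eps8l3 peak was higher by 2.44 ± 0.17 in shSMRT (limma, adjusted p = 1.26e-15) and by 0.95 ± 0.17 in shNCOR (adjusted p = 7.48e-05).

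Losses in shSMRT were led by a Plat_L3 peak in an intron 61.3 kb from Wnt11, a Wnt ligand gene (chr7:98899920-98900300). It had 2.64, 3.30 and 5.07 in shNCOR, 3.76, 6.81 and 0 in shSMRT and 34.7, 28.1 and 24.0 in shGFP. It was near the floor in both knockdowns and did not overlap with shGFP. The peak was in the lists of shGFP libraries only, so it had to be high there. The log2 fold change was -1.97 ± 0.45 in shNCOR (adjusted p = 0.00235) and -2.07 ± 0.45 in shSMRT (adjusted p = 0.000734), and Wnt11 RNA is listed at 0 throughout.

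An Lx3C peak 31.4 kb from Serpinb1c, a serine protease inhibitor gene (chr13:32929217-32929788), had 77.9, 38.0 and 59.6 in shNCOR, 45.1, 36.3 and 56.6 in shSMRT and 155, 171 and 150 in shGFP. It was lower in both knockdowns, by -1.42 ± 0.19 (adjusted p = 4.43e-07) in shNCOR and -1.70 ± 0.19 (adjusted p = 3.18e-09) in shSMRT. Serpinb1c has close relatives, so RNA reads could be split among them. Also lower in shSMRT were an L1MDa peak near the potassium channel gene Kcnj6 (-1.72 ± 0.42), an L1MC4 peak near Mir6362 (-1.41 ± 0.31) and an L1ME3G peak near Gapvd1 (-1.40 ± 0.39). The Kcnj6 peak was listed in shGFP libraries only.

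**Figure D2:**
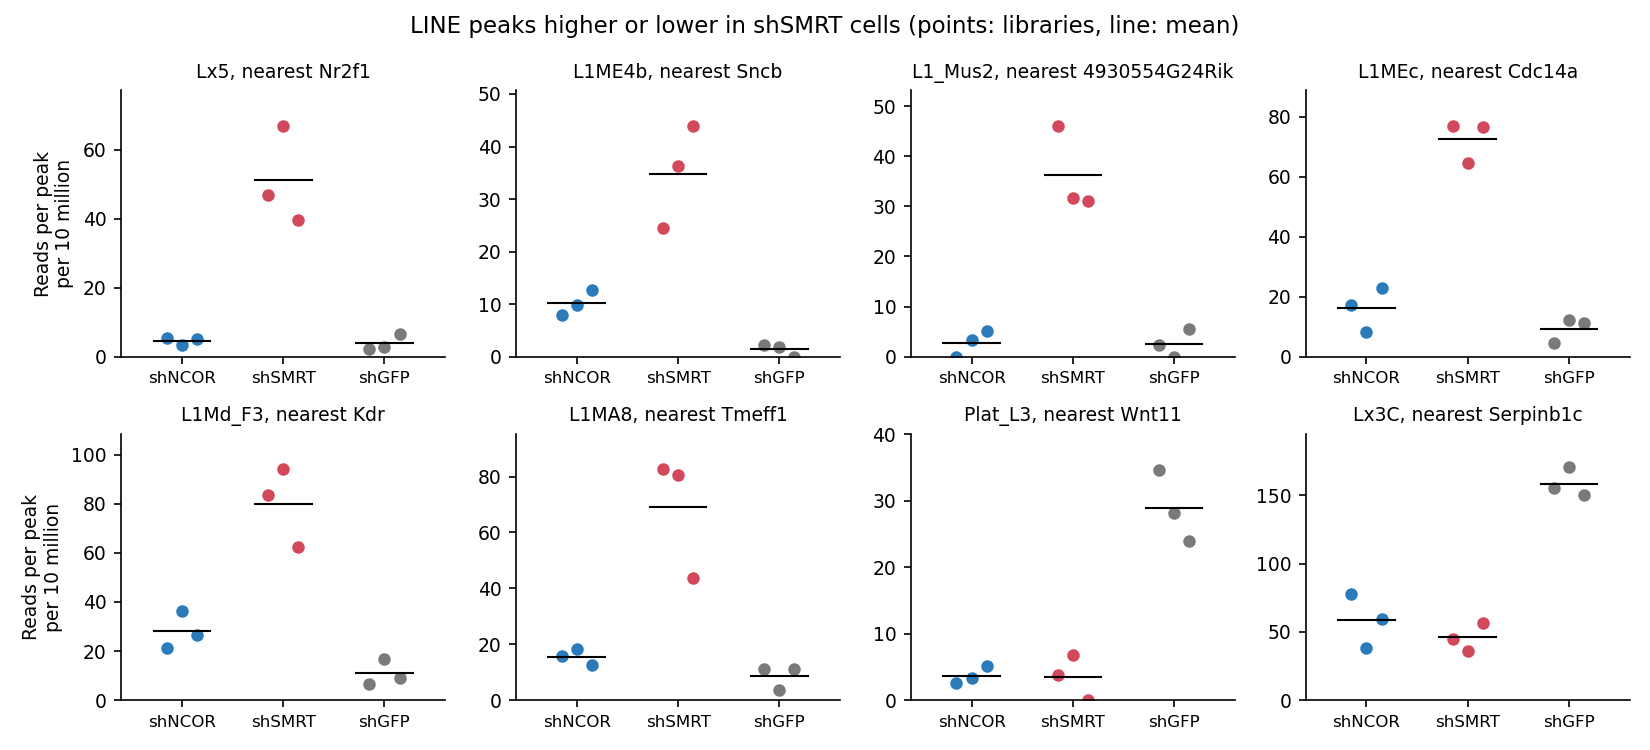
The 6 LINE peaks with the largest gain and 2 of those that were lower in shSMRT against shGFP: points are libraries in reads per peak per 10 M, lines are means of 3, and each panel names the element and the nearest gene. The peaks near Nr2f1, Sncb, 4930554G24Rik and Tmeff1 were listed in shSMRT libraries only, and the Wnt11 peak in shGFP libraries only. At the L1Md_F3 peak near Kdr the shSMRT libraries sit between 62.3 and 94.2 and the shGFP libraries between 6.71 and 16.9, and at the Lx3C peak near Serpinb1c the shNCOR and shSMRT libraries sit between 36.3 and 77.9, all below shGFP.

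More peaks were higher than lower in shSMRT in every L1 group and in L2. The counts of higher and lower were 4 and 0 of 35 L1Md peaks, 20 and 7 of 141 L1_Mus and L1_Mur peaks, 51 and 22 of 454 Lx peaks, 62 and 26 of 577 L1M and HAL1 peaks, and 30 and 19 of 279 L2 peaks. CR1 peaks had 4 higher and 7 lower of 63, a balance that was 5 and 5 after scaling to equal reads in peaks. The RTE peaks had 3 higher and 2 lower of 10. The median log2 fold change was 0.26 in L1Md, 0.11 in L1_Mus and L1_Mur, 0.01 in Lx, 0.10 in L1M and HAL1, -0.03 in L2 and -0.11 in CR1 peaks. Differences between these groups of elements were not tested.

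**Figure D3:**
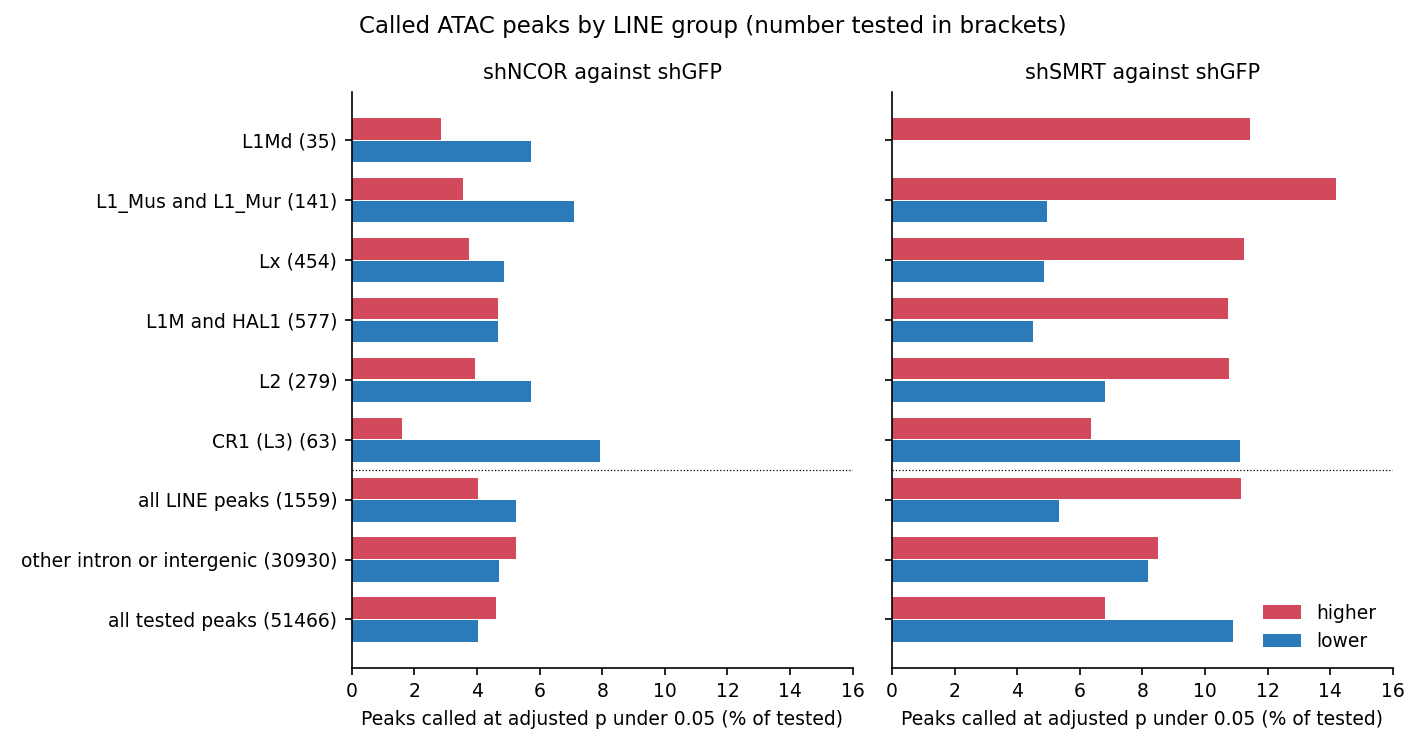
Called peaks by group of elements, as a percentage of the peaks tested (numbers in brackets), in shNCOR (left) and shSMRT (right) against shGFP; red bars are higher and blue bars lower. In shSMRT red exceeds blue in the LINE groups drawn, except in CR1, which evens out at 5 and 5 after scaling to equal reads in peaks, whereas over all 51466 peaks blue is longer, 10.9% lower and 6.81% higher, an order that the same scaling turns to 5.29% lower and 8.90% higher.

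Single elements differed in how many of their peaks changed. Of 27 tested L1_Mus2 peaks, 9 (33.3%) were higher in shSMRT and 0 lower. Their median level was 40.4, 28.4 and 31.1 in the shSMRT libraries and 20.1, 21.6 and 17.5 in the shGFP libraries, without overlap, and in shNCOR 0 were higher and 2 lower. Of 32 Lx5c peaks, 0 were higher and 1 lower in shSMRT, and of 23 L1MB2 peaks 5 were higher and 1 lower. These 3 elements were singled out after their values were seen, among 25 element names with at least 20 peaks.

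Outside L1, peaks that were higher in shSMRT included an L2c peak 119 kb from Marcks, which encodes a protein kinase C substrate (chr10:37257615-37257868), and a pair of peaks near the transcription factor gene Maf. The Marcks peak had 2.64, 6.60 and 10.2 in shNCOR, 43.2, 38.6 and 28.3 in shSMRT and 6.71, 3.75 and 0 in shGFP (2.36 ± 0.43 in shSMRT against shGFP, adjusted p = 6.39e-05). The Marcks peak met the filter of at least 10 in 3 libraries only through its shSMRT libraries, so it had to be high there. Near Maf, an L4_B_Mam peak of the RTE-X family (chr8:115612184-115612427) was higher in shSMRT by 1.38 ± 0.25 (adjusted p = 7.58e-05), and an L3 peak (chr8:115582152-115582557) by 1.42 ± 0.42 (adjusted p = 0.0126), a call lost in 4 of 19 settings. Maf RNA was 0.311, 0.233 and 0.239 RPKM in shSMRT and at most 0.012 RPKM in shNCOR and shGFP, too low for the RNA test. An L2b peak 22.2 kb from Etv4, an ETS factor gene, was higher by 1.88 ± 0.46 (adjusted p = 0.00276).

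Gains in shSMRT were more frequent far from genes. Within 10 kb of a gene start, 28 of 368 LINE peaks were higher (7.61%) and 21 lower (5.71%), and between 10 and 50 kb 77 were higher and 40 lower of 749. Between 50 and 200 kb, 53 were higher (14.1%) and 22 lower (5.84%) of 377. Beyond 200 kb, 16 of 65 were higher (24.6%) and 0 lower. The other intron or intergenic peaks had the same order, with 5.94% higher within 10 kb and 18.0% beyond 200 kb, so this order is not peculiar to LINEs. In shNCOR against shGFP the share of LINE peaks called higher was 5.16, 3.34, 4.24 and 4.62% in the same 4 distance classes.

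**Figure D4:**
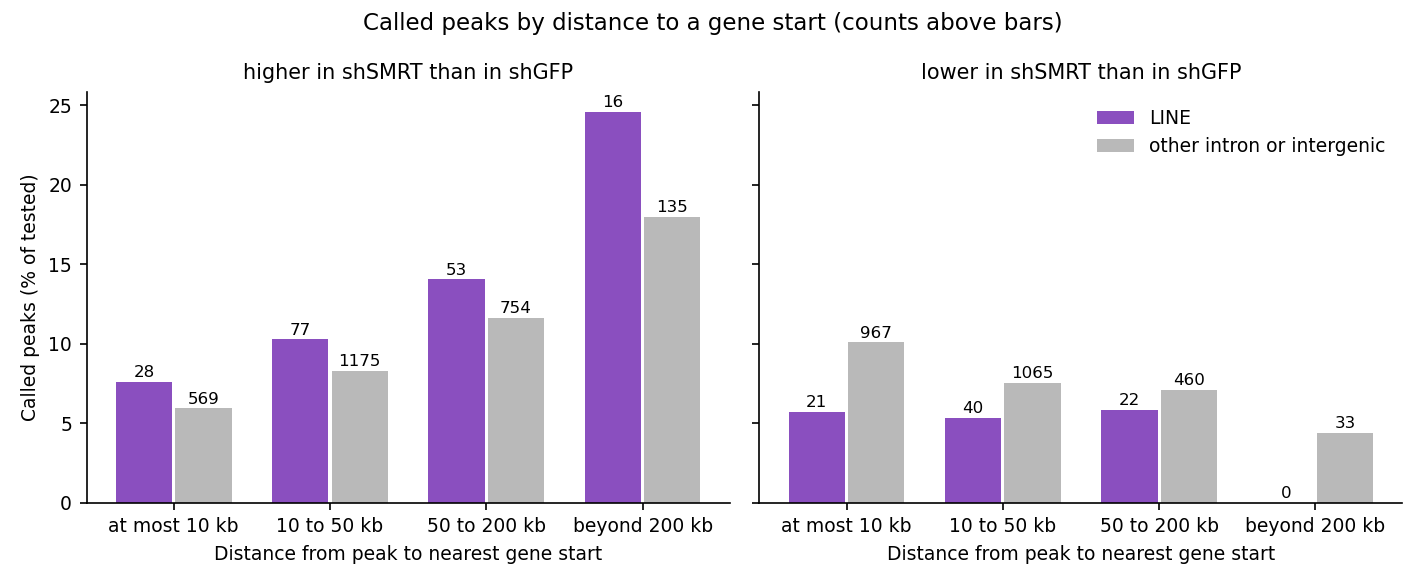
Called peaks in shSMRT against shGFP by distance to the nearest gene start, as a percentage of peaks tested, for LINE peaks (purple) and other intron or intergenic peaks (grey), with counts above the bars. The share called higher (left) climbs with distance in both, to 24.6% and 18.0% beyond 200 kb, and no LINE peak beyond 200 kb was called lower (right).

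NCOR knockdown changed fewer LINE peaks and did so in both directions. Of 1559 tested in shNCOR against shGFP, 63 were higher (4.04%) and 82 lower (5.26%), beside 4.60% and 4.01% of all peaks. Of the 1559, 20 were called at least 2-fold higher and 34 at least 2-fold lower, beside 420 and 856 of all 51466 peaks tested. The median log2 fold change was 0.05 over LINE peaks and 0.05 over all peaks, and it was -0.01 for LINE peaks after scaling to equal reads in peaks, where 47 were higher (3.01%) and 93 lower (5.97%), beside 2.91% and 4.92% of all peaks, whose order turned too. In 58 of the higher and 78 of the lower peaks the libraries did not overlap. Called or not, 14.4% of LINE peaks were separated upward and 11.8% downward, beside 15.6% and 10.3% of all peaks. Depth also moved with the groups, at 6.06 to 7.88 M reads in shNCOR and 8.94 to 10.8 M in shGFP. A voom fit on the recovered reads called 61 higher and 60 lower. Leaving out any shGFP library gave 40 to 48 lower peaks, and 42 higher ones without shGFP library 1.

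The largest gain in shNCOR was an L4_C_Mam peak (chr8:35556147-35556453) 31.5 kb from Mfhas1, a leucine-rich repeat protein gene, with 42.2, 69.3 and 46.9 in shNCOR, 54.5, 56.7 and 73.6 in shSMRT and 12.3, 11.3 and 21.2 in shGFP. Both knockdowns lay above shGFP without overlap (1.54 ± 0.26 in shNCOR, adjusted p = 4.49e-05, and 1.76 ± 0.26 in shSMRT, adjusted p = 2.09e-06). Mfhas1 RNA was not called in shNCOR (adjusted p = 0.542) or shSMRT (adjusted p = 0.453). An L1MEd peak 12.0 kb from Malsu1, a mitochondrial ribosome assembly gene, was higher in shNCOR but not called in shSMRT, at 51.5, 39.6 and 50.7 in shNCOR, 14.1, 22.7 and 15.6 in shSMRT and 14.5, 19.7 and 16.6 in shGFP (1.25 ± 0.31, adjusted p = 0.00491). Peaks near Bok, a BCL-2 family gene (L1MB7, 1.46 ± 0.37), and Fam129b (L1ME2, 1.24 ± 0.22) were higher in shNCOR, and in shSMRT too (1.56 ± 0.37 and 1.14 ± 0.22).

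Among losses in shNCOR, the L2 peak in an intron 37.0 kb from Ank2, which encodes a membrane anchor protein (chr3:127035069-127035879), had 54.1, 28.1 and 30.5 in shNCOR, 134, 161 and 147 in shSMRT and 134, 94.7 and 98.7 in shGFP. Only the shNCOR libraries stood apart on the low side. The log2 fold change was -1.46 ± 0.18 in shNCOR (adjusted p = 5.62e-08) and 0.43 ± 0.18 in shSMRT (adjusted p = 0.0866). Ank2 RNA was 0.022 ± 0.015 RPKM in shNCOR, 0.677 ± 0.093 in shSMRT and 0.305 ± 0.036 in shGFP, below the filter of the RNA test. Weak peaks near Gm10677 (L1MA9, -1.71 ± 0.45), Trpd52l3 (L1ME4b, -1.66 ± 0.37), Pag1 (L2b, -1.66 ± 0.46), the kinase gene Map3k7 (L1MA5A, -1.53 ± 0.41) and Zswim2 (L1Md_F2, -1.53 ± 0.42) were also lower. An L3 peak in an intron near the glutamate transporter gene Slc1a3 was lower by -0.98 ± 0.27 (adjusted p = 0.0147).

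Set against shNCOR, 186 LINE peaks were higher (11.9%) and 109 lower (6.99%) in shSMRT, beside 6.92% and 17.5% of all peaks. The libraries did not overlap in 176 of the higher and 91 of the lower peaks. Called or not, 18.8% of LINE peaks were separated upward and 12.6% downward, beside 11.1% and 24.6% of all peaks. Scaling to equal reads in peaks moved the median over all peaks to 0.04, where it was -0.12 on the deposited scale, and gave 248 higher and 31 lower LINE peaks, beside 9.94% and 5.10% of all peaks. Quantile normalization gave 167 and 51, beside 6.94% and 4.61%, so the order over all peaks turned under both. The largest difference was an Lx7 peak 61.5 kb from Mrps30, a mitochondrial ribosomal protein gene (chr13:118325616-118325891), with 61.0, 43.1 and 32.5 in shSMRT, 0, 6.60 and 0 in shNCOR and 11.2, 7.50 and 10.1 in shGFP. It was higher in shSMRT than in shNCOR by 2.89 ± 0.41 (limma, adjusted p = 9.88e-07), with all shSMRT libraries apart from the rest. The Lx7 peak was listed in shSMRT libraries only, so it had to be high there. On the low side, L2b near Sort1 (-1.12 ± 0.28) and L2 near Sema4a (-1.09 ± 0.19), a semaphorin gene, were lower in shSMRT than in shNCOR.

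The neighbour of a called LINE peak was called the same way more often than the opposite way. Among all 931 LINE peaks with another peak within 10 kb, that peak was higher in shSMRT in 63 and lower in 94. For LINE peaks higher in shSMRT with another peak within 10 kb, that nearest peak was higher in 14 and lower in 2 of 79. For those lower in shSMRT, it was higher in 2 and lower in 20 of 60. In shNCOR the nearest peak within 10 kb was higher in 8 and lower in 0 of 43 LINE peaks that were higher, and higher in 0 and lower in 15 of 46 that were lower. Among all 931, it was higher in shNCOR in 56 and lower in 48. Neighbouring peaks share libraries and are not independent. Of the 29 LINE peaks higher in shSMRT whose nearest other peak was beyond 50 kb, that peak was higher in 1 and lower in 2.

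The genes nearest to LINE peaks were read in the RNA-seq libraries, another readout of the same hairpins. The knockdown itself was seen for NCOR: Ncor1 RNA was 3.61, 4.20 and 4.30 RPKM in shNCOR, 18.9, 20.2 and 20.2 in shSMRT and 18.4, 20.2 and 18.7 in shGFP. Macrophage markers were present (Csf1r at 314 to 565 and Lyz2 at 5150 to 8363 RPKM), and 18 markers of T cells, B cells, fibroblasts, epithelium and granule-bearing cells were at or below 0.136 RPKM. The 1570 peaks named 1379 nearest genes, of which 831 passed the RNA filter. In shSMRT against shGFP, 317 of these were higher and 210 lower, beside 24.4% and 31.4% of all 10789 genes tested. In shNCOR, 195 were higher and 228 lower, beside 17.6% and 20.0%.

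In both comparisons with shGFP, called RNA went with the peak more often than against it. Next to LINE peaks higher in shSMRT, 43 of 79 tested genes had higher RNA (54.4%) and 17 lower (21.5%), against 45.9% and 21.3% next to other intron or intergenic peaks that were higher. Beside LINE peaks not called in shSMRT, 37.5% of genes were higher and 23.9% lower, so more higher than lower RNA was also the baseline. Next to LINE peaks lower in shSMRT, 14 of 55 genes had higher (25.5%) and 25 lower RNA (45.5%), against 27.6% and 37.3% next to the others. Next to LINE peaks higher in shNCOR, 20 of 44 genes had higher (45.5%) and 5 lower RNA (11.4%), against 40.8% and 14.5% next to the others. Next to those lower in shNCOR, 2 of 34 had higher and 20 lower RNA (58.8%, against 43.4% next to the others). Beside LINE peaks not called in shNCOR, 23.2% of genes were higher and 27.4% lower. Next to LINE peaks lower in shSMRT than in shNCOR the counts were near each other, with 24 of 79 genes higher (30.4%) and 25 lower (31.6%). Next to those higher, 32 of 68 genes were higher and 9 lower. Beside LINE peaks not called between the knockdowns, 37.4% of genes were higher and 21.0% lower. Of 82 called LINE peaks with a tested gene in shNCOR, the RNA was called the same way at 42 and the opposite way at 7. In shSMRT against shGFP it was the same way at 68 and the opposite way at 31 of 135. Between the knockdowns, RNA changed at least 2-fold with the peak in 13 pairs and against it in 3. In 8 pairs in shNCOR and 10 in shSMRT the peak was called and the RNA changed the same way by at least 2-fold, against 0 and 1 the opposite way. These pairs were chosen after their values were seen, and the nearest gene need not be the gene a peak acts on.

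Rarb, a retinoic acid receptor gene and so itself a nuclear receptor, had an L1_Mus1 peak in an intron 37.1 kb from its start (chr14:16538186-16538578). The peak was at 77.9, 71.0 and 53.3 in shNCOR, 35.7, 22.7 and 32.5 in shSMRT and 22.4, 28.1 and 22.1 in shGFP. Rarb RNA was 10.3, 10.6 and 10.5 RPKM in shNCOR, 0.851, 0.763 and 1.21 in shSMRT and 0.694, 0.860 and 0.513 in shGFP. Peak and RNA stood apart in shNCOR only. The peak was higher there by 1.30 ± 0.26 (adjusted p = 0.000428) and was not called in shSMRT (0.26 ± 0.26, adjusted p = 0.525).

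The opposite pattern was seen at Pdcd1, which encodes the checkpoint receptor PD-1. An L1_Mus2 peak 6.00 kb from its start (chr1:94058394-94058705) had 17.2, 9.90 and 27.9 in shNCOR, 117, 120 and 119 in shSMRT and 49.2, 41.3 and 29.5 in shGFP. Pdcd1 RNA was 0.021, 0.047 and 0.026 RPKM in shNCOR, 6.20, 5.57 and 5.92 in shSMRT and 0.276, 0.505 and 0.345 in shGFP. Both measures were highest in shSMRT and lowest in shNCOR, with no overlap between groups. The peak was higher in shSMRT by 1.49 ± 0.25 (adjusted p = 1.66e-05) and lower in shNCOR by -0.998 ± 0.25 (adjusted p = 0.00570), a call lost in 3 of 19 settings. Between the knockdowns the peak differed by 2.48 ± 0.25 (adjusted p = 1.19e-10) and the RNA by 2.74 ± 0.08.

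Itgax, the gene of the integrin CD11c, had an Lx8 peak 7.57 kb from its start (chr7:128121701-128122261). It was at 40.9, 24.8 and 31.7 in shNCOR, 76.1, 79.4 and 59.4 in shSMRT and 20.1, 11.3 and 20.3 in shGFP, and was higher in shSMRT by 1.81 ± 0.27 (adjusted p = 2.1e-06). Itgax RNA was 5.63, 5.71 and 5.80 RPKM in shNCOR, 22.4, 24.1 and 21.7 in shSMRT and 1.24, 1.34 and 1.40 in shGFP, an increase of 3.35 ± 0.05 in shSMRT. Peak and RNA were both highest in shSMRT, with shNCOR between.

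Near Vegfc, a lymphatic growth factor gene, an Lx8b peak 196 kb away (chr8:54273097-54273372) was open in both knockdowns, at 42.2, 44.6 and 35.5 in shNCOR, 56.3, 61.3 and 52.4 in shSMRT and 15.7, 15.0 and 13.8 in shGFP. Vegfc RNA was 3.12, 3.52 and 3.26 RPKM in shNCOR, 3.26, 3.72 and 4.02 in shSMRT and 0.234, 0.082 and 0.218 in shGFP. The peak rose by 1.20 ± 0.26 in shNCOR and 1.64 ± 0.26 in shSMRT, and the RNA by 1.87 ± 0.09 in shNCOR and 1.98 ± 0.09 in shSMRT. shNCOR and shSMRT libraries overlapped in the RNA but not in the peak, whose difference between them did not pass the test (0.43 ± 0.26, adjusted p = 0.235).

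**Figure D5:**
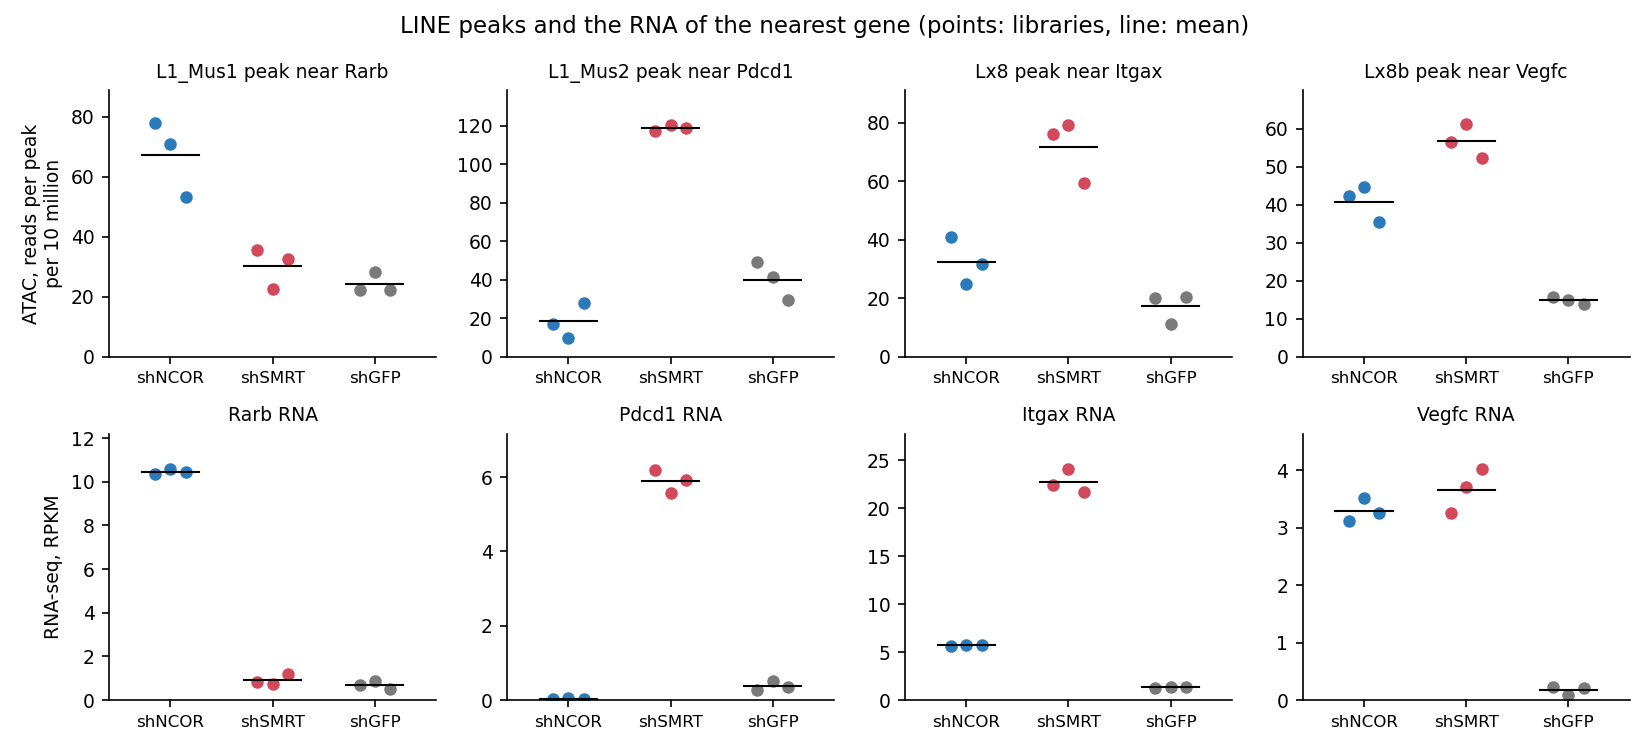
Accessibility of 4 LINE peaks (top, reads per peak per 10 M) and RNA of the nearest gene (bottom, RPKM): points are libraries and lines are means of 3, in the order shNCOR, shSMRT, shGFP. The Rarb pair is high in shNCOR only, the Pdcd1 pair is high in shSMRT and lowest in shNCOR, the Itgax pair is highest in shSMRT and the Vegfc pair is high in both knockdowns.

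Of the other pairs in shSMRT, an L1MA8 peak 7.98 kb from Tmeff1, a transmembrane protein gene (chr4:48577045-48577351), rose by 2.44 ± 0.33 and Tmeff1 RNA by 1.53 ± 0.08. The Tmeff1 peak was listed in shSMRT libraries only, so it had to be high there. An L1MC5a peak 48.1 kb from Kirrel3, a cell adhesion gene, rose by 1.43 ± 0.22 and the RNA by 1.23 ± 0.10. Smaller gains in the peak went with the RNA of Myo1d (L2c, 0.79 ± 0.24), Layn (L1_Mus2, 0.84 ± 0.30), Clec4a2 (Lx4A, 0.49 ± 0.12) and Plk2 (L2a, 0.37 ± 0.13). Clec4a2 belongs to a family of similar lectin genes, so RNA reads could be split. Sort1, the sortilin gene, fell in peak (L2b, -1.07 ± 0.28) and RNA (-1.07 ± 0.08). Calhm6 went against its peak: the L1_Mus3 peak 14.5 kb away rose by 1.08 ± 0.30 in shSMRT, while its RNA was lower, at 2.33, 2.06 and 2.07 RPKM in shSMRT against 7.63, 6.68 and 6.95 in shGFP.

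In shNCOR the remaining pairs were 3 that fell and 3 that rose. Flt1, a VEGF receptor gene, fell in peak (L1MB2, -0.97 ± 0.29) and RNA (-1.47 ± 0.08), as did the growth factor gene Igf1 (L1MA5, -0.63 ± 0.17, RNA -1.30 ± 0.06) and Icosl, which encodes a T cell costimulatory ligand (L1MB3, -1.06 ± 0.26, RNA -1.25 ± 0.10). At the Igf1 peak (chr10:87842513-87842818) the libraries were at 66.0, 64.4 and 64.7 in shNCOR, 76.1, 59.0 and 55.2 in shSMRT and 101, 102 and 108 in shGFP, so both knockdowns lay below shGFP (shSMRT -0.68 ± 0.17, adjusted p = 0.00367). The adhesion gene Nectin3 rose in peak (L1MCc, 0.61 ± 0.16) and RNA (1.19 ± 0.04), and so did Btg1, an antiproliferative gene (L2a, 0.67 ± 0.22, RNA 1.24 ± 0.03), and Clec4a2 (0.47 ± 0.12, RNA 1.05 ± 0.05).

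A list of 40 genes, put together as linked to the silencing or restriction of LINE-1, was read, and 39 passed the RNA filter. Whether each of them restrains LINE-1 in these cells was not tested. In shSMRT against shGFP 6 were higher and 20 lower, beside 24.4% and 31.4% of all genes, and the median change was -0.09. In shNCOR 6 were higher and 13 lower, beside 17.6% and 20.0% of all genes, and the median was -0.06. Without shGFP library 3 the number higher in shNCOR was 3. Between the knockdowns, 10 of the list had more RNA in shSMRT than in shNCOR and 13 had less, beside 22.8% and 29.0% of all genes. Quantile normalization gave 8 higher and 14 lower in shSMRT against shGFP, where the median of the list was -0.03 and that of all genes -0.03, and 12 with more and 8 with less RNA in shSMRT than in shNCOR. The medians over all 10789 genes were -0.02 and 0.00. The histone methyltransferase gene Setdb1 was at 26.9 ± 0.42 RPKM in shNCOR, 25.9 ± 0.82 in shSMRT and 23.6 ± 0.48 in shGFP (SD, n = 3), and its cofactor Atf7ip at 6.98 ± 0.36 RPKM in shNCOR, 8.54 ± 0.60 in shSMRT and 5.47 ± 0.32 in shGFP. Both rose in shNCOR (Setdb1 0.18 ± 0.03 and Atf7ip 0.30 ± 0.06) and in shSMRT (Setdb1 0.13 ± 0.03, adjusted p = 0.00647, and Atf7ip 0.56 ± 0.06, adjusted p = 1.85e-05). The DNA methyltransferase gene Dnmt3a rose in both (0.25 ± 0.03 in shNCOR and 0.32 ± 0.03 in shSMRT), and Morc2a, a partner of the HUSH silencing complex, in shSMRT (0.40 ± 0.04).

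Among the genes that fell, Uhrf1, which guides maintenance DNA methylation, was at 81.6 ± 0.82 RPKM in shNCOR, 76.1 ± 1.4 in shSMRT and 98.2 ± 1.0 in shGFP (-0.26 ± 0.02 in shNCOR and -0.36 ± 0.02 in shSMRT against shGFP). The RNase H2 subunit gene Rnaseh2b fell by 0.45 ± 0.05 in shNCOR and 0.51 ± 0.05 in shSMRT. The nuclease gene Trex1 fell more in shNCOR (-0.64 ± 0.03) than in shSMRT (-0.40 ± 0.03), and the difference between the knockdowns was 0.24 ± 0.03 (adjusted p = 0.000141). The RNA helicase gene Mov10 and the editing enzyme gene Adar fell in shNCOR by 0.73 ± 0.05 and 0.78 ± 0.04, and less in shSMRT (0.22 ± 0.05 and 0.20 ± 0.04), and between the knockdowns they differed by 0.51 ± 0.05 (adjusted p = 7.45e-06) and 0.58 ± 0.04 (adjusted p = 6.04e-07). Samhd1, which depletes nucleotides, went opposite ways, at -0.18 ± 0.03 in shNCOR (adjusted p = 0.000901) and 0.37 ± 0.03 in shSMRT (adjusted p = 3.27e-06). Several of these genes are also interferon-inducible.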

How the data were processed

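Values were used from 9 ATAC-seq and 9 RNA-seq libraries, 3 per hairpin, grouped by the hairpin in their titles. The ATAC protocol in the labels speaks of wild-type cells whereas the titles name hairpins, and the titles were followed. The deposited ATAC values count reads in each peak after scaling every library to 10 M. HOMER annotated 1 merged peak list on mm10, per the file headers, and a shift of reads for the transposase is not stated. RNA was deposited as RPKM (reads normalised to exon length and library size). HOMER counted, per the file headers, exons on both strands of mm10, so antisense and overlapping genes cannot be told apart. The submitters' processing notes list, without roles, DESeq2, MACS2, HISAT2, Bowtie2 and HOMER, and as builds mm10 and mm9. The peak caller and the treatment of reads with several matches are not given in the sources used here.

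Decimal commas were read as points, and 1 peak without a number was left out. Among the lower nonzero ATAC values, 100% came to whole reads (tolerance 0.1 read), and higher values were not checked. This gave depths of 6.06 to 10.8 M reads, so 1 read was worth 0.922 to 1.65 scaled reads. No pair of libraries agreed within sampling noise (chi-square per peak 1.64 to 1.90). limma 3.58.1 (R 4.3.3) was fitted, with its trend option, to log2(value + 5) for 51466 peaks with at least 10 in at least 3 libraries, and to log2(RPKM + 1) for 10789 genes reaching 1 RPKM in 3 or more. All 9 libraries of an assay entered 1 fit, Benjamini-Hochberg adjustment ran over the whole table, and calls were made at 0.05. Fold changes on these scales understate the change of low features. The scripts were tested on simulated data, and figures used matplotlib 3.10.9. No test was made over the LINE peaks as a set.

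Peaks named are, per knockdown, the 6 highest and 6 lowest fold changes among called LINE peaks whose libraries did not overlap between groups (4 each between knockdowns), the 6 of highest mean, and the 2 called peaks of largest change per family other than L1. Silencing genes named are the 3 highest and 3 lowest called per knockdown. Members, lists and rules were chosen with earlier results of these data known. The peaks near Vegfc and Eps8l3, the pairs of peak and RNA and the promoter windows were chosen after values were seen. Alternatives were other pseudocounts, filters and scalings, a replicate block, fits on 6 libraries, leaving out each library and, added after seeing the data, centring on the median of all peaks and limma voom on the recovered reads. Same-numbered libraries did not deviate together (correlations between -0.043 and 0.022 in ATAC and between -0.060 and 0.105 in RNA). Motifs inside the LINE peaks were not analysed here, for lack of the genome, and neither RNA of the gene targeted by the SMRT hairpin nor 1 peak meeting the naming rule is reported here.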

Additional observations from a re-analysis of the deposited data

How the results depend on the processing

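With equal sums of reads in peaks, 48 LINE peaks were lower in shSMRT than in shGFP (median log2 fold change 0.15) and 31 lower in shSMRT than in shNCOR (median 0.18). Quantile normalization gave 51 lower in shSMRT than in shNCOR, 8 silencing genes lower there, and a value of 0.0626 for the Lx8 peak near Hspb7 between the knockdowns, opposite to its reported -0.23. With members of mean at least 30, LINE peaks held 1.60% of reads in peaks in shNCOR, 1.77% in shSMRT and 1.62% in shGFP. Leaving out 1 library gave 42 to 63 higher and 40 to 85 lower in shNCOR against shGFP, 125 to 201 and 47 to 96 in shSMRT against shGFP, and 132 to 185 and 80 to 102 between the knockdowns. Silencing genes higher in shNCOR numbered 3 to 6. Leaving these ranges aside, 132 main values under an alternative stayed near the main value, 5 moved and 4 were weaker. Counts were compared by their ratio and medians by the spread of library medians (0.062), so a change of sign was not looked for. The LINE median in shNCOR against shGFP went from 0.05 to -0.01 with equal sums. With a filter of at least 30, that in shSMRT against shNCOR went from 0.02 to -0.03. Of 72 tests of named peaks, 51 kept their call in every setting run. The cause of these changes was not tested.

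With the replicate number as a block, 62 LINE peaks were higher and 80 lower in shNCOR, 176 and 81 in shSMRT against shGFP, and 184 and 106 in shSMRT against shNCOR, and the numbers do not pair the libraries. At the depth used a peak with a value of 10 rests on about as many reads, so weak peaks carry the largest standard errors (0.45 near Wnt11, against 0.08 at the strongest peaks). LINE peaks were defined by annotation only, and the peak list itself was drawn from these libraries.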
